A study of Mus musculus with 28 samples.

Results

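The mouse proteasome genes described here are the 50 protein-coding genes whose symbols start with Psma, Psmb, Psmc, Psmd, Psme, Psmf or Psmg. They were chosen by symbol alone, out of 45513 genes counted in every library, of which 21578 are protein-coding. By known function, 31 of them encode constitutive subunits of the 26S proteasome, namely 7 alpha and 7 beta subunits of the 20S core and 6 ATPases and 11 other subunits of the 19S cap. The rest are 3 interferon-inducible beta subunits, 2 tissue-restricted core subunits, 4 assembly chaperones of the core, 3 assembly chaperones of the cap, 5 activators, 1 inhibitor and Psmc3ip. Psmc3ip acts in meiotic recombination and carries the symbol because its protein binds a 19S ATPase, so it is counted by the rule but is not a proteasome gene. Another 4 genes with Psmb symbols are processed pseudogenes and were left out.

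The proteasome degrades proteins that have been tagged with ubiquitin. Its 20S core is a barrel of stacked alpha and beta rings with the protein-cutting sites inside, on Psmb5, Psmb6 and Psmb7, which Psmb8, Psmb9 and Psmb10 replace in the immunoproteasome of cells that respond to interferon. The 19S cap recognises ubiquitin chains through its non-ATPase subunits and unfolds the substrate with its ring of Psmc ATPases, whereas the Psme activators open the core without ubiquitin. In neurons the proteasome turns over synaptic proteins, and protein aggregates that hold TDP-43 are a hallmark of amyotrophic lateral sclerosis.

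Ribosome footprints, the mRNA fragments that ribosomes shield from RNase, and fragments of poly(A)-selected total mRNA were sequenced from each of 14 mouse cultures, which gave 28 libraries. MN1 cells are a clonal hybrid line of spinal motor neurons and neuroblastoma, and they received by transfection either GFP, the human protein hTDP-43 or its patient allele hTDP-43 A315T (2 cultures each). Primary cortical neurons were taken at embryonic day 16 on the C57BL/6J background and grown for 14 days with Ara-C, which kills dividing cells. They came from non-transgenic (WT) littermates (2 cultures) and from hemizygous mice expressing hTDP-43 (3 cultures) or hTDP-43 A315T (3 cultures) from the prion protein promoter. All TDP-43 groups kept the endogenous mouse gene. MN1 cells received 100 µg/mL cycloheximide for 3 min before lysis and neurons did not, so cell type, drug and culture dates cannot be told apart in a comparison of the cell types. The labels do not say whether a neuron culture pooled several embryos.

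MN1 libraries held 332370 to 1219222 counts (footprints) and 1328528 to 2988339 counts (total mRNA), and neuron libraries 166064 to 2528820 and 600385 to 6969578. A count of 3 stood for up to 18.1 CPM (counts-per-million) in the shallowest neuron footprint library, and between 32 and 44 members had at least 10 counts in a neuron footprint library. The 7 neuron markers summed to 7156 to 8709 CPM in neuron footprints and 659 to 806 CPM in MN1 footprints. The 4 motor neuron markers summed to 50.3 to 74.97 CPM in MN1 footprints and at most 15.3 CPM in neurons. Isl1 and Slc18a3 carried this sum, whereas Chat (medians of 1.93 and 1.78 CPM) and Mnx1 (0 in both) were near the limit of detection in both. The 4 markers of cycling cells summed to 682 to 1069 CPM in MN1 footprints against 1.87 to 6.67 CPM in the neuron ones. The 4 astrocyte markers summed to 64.1 to 155 CPM in neuron footprints and to at most 1.397 CPM in MN1 footprints, in which Gfap and Aldh1l1 had no counts. The 6 microglia markers summed to at most 3.17 and 3.74 CPM in MN1 and neuron footprints. Lars2 took 18.8% and 14.1% of total mRNA counts in the neuron cultures WT replicate 3 and hTDP-43 replicate 3, against 3.09% to 7.49% in the others. CPM below are scaled by TMM, a factor that equalises most genes between libraries, over the 14 libraries of a library type.

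Proteasome genes took a larger share of counts in MN1 cells than in neurons. Their footprint share was 1.09% to 1.23% in MN1 cells but 0.512% to 0.571% in neurons. Their total mRNA share was 0.734% to 0.825% against 0.169% to 0.340%. The groups did not overlap in either library type, and the lowest shares, 0.169% and 0.184%, were those of the Lars2-rich cultures. In every culture the share was higher in footprints than in total mRNA, by 1.4 to 1.56 times in MN1 cells and by 1.57 to 3.12 times in neurons.

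MN1 cells and cortical neurons were compared to ask how much of the proteasome gene set differs between the dividing hybrid line and postmitotic neurons. Most of the genes were higher in MN1 cells at both levels. The alpha subunits Psma6 and Psma7 were among those with the smallest adjusted p at both, whereas the 19S ATPases Psmc1 and Psmc2 differed little at either. Of the 46 members tested in footprints, 38 were higher and 1 was lower by edgeR's quasi-likelihood test with Benjamini-Hochberg adjustment, against 39.9% higher and 42.7% lower among all 10698 genes tested. In total mRNA, 41 of the 47 tested were higher and 0 lower, against 38.4% and 42.6% of 12801 genes. DESeq2 also called 0 members lower there, and no other member had an unadjusted p under 0.05. The members' median log2 difference was 0.94 in footprints and 1.09 in total mRNA, beside −0.05 and −0.09 over all genes. Psmb8 and Psmc3ip in both library types, Psmg3 in footprints and Psmb9 in total mRNA reached the filter's level in MN1 cells only, and without them 35 of 43 were higher in footprints and 38 of 44 in total mRNA. Of the called members, 31 of 39 in footprints and 29 of 41 in total mRNA passed under every alternative setting. These counts include the members that reached the filter's level in MN1 cells only. No replicate block was fitted for this comparison and no replicate number was left out whole. Cultures of the same number were thus treated as independent throughout. Without the 2 Lars2-rich cultures, 36 of 47 were higher and 1 lower in footprints and 40 and 1 of 47 in total mRNA, with medians of 0.94 in both. In bulk cultures, fewer cells of a type and less RNA per cell cannot be told apart.

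**Figure D1:**
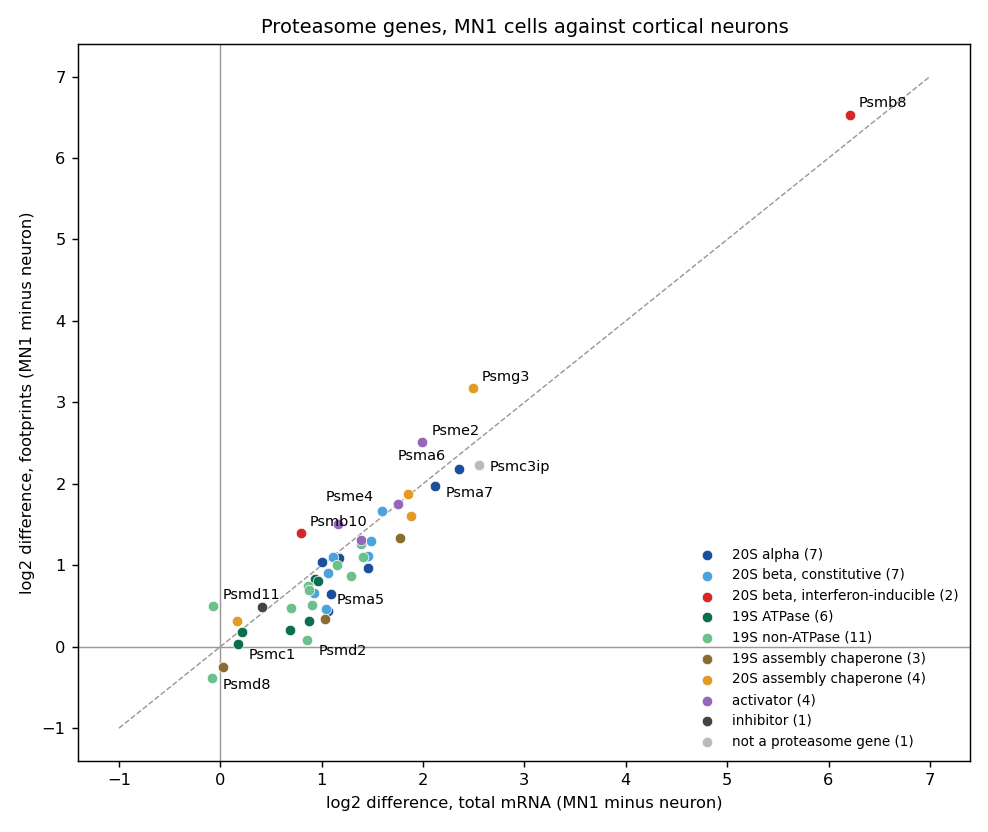
Log2 difference between MN1 cells and cortical neurons for each member tested in both library types, total mRNA on the horizontal axis and ribosome footprints on the vertical axis, coloured by role, with a dashed line where both are equal. Most points lie above 0 on both axes, Psmd8 lies lowest with −0.39 in footprints, and the far point is Psmb8, whose value rests on 3 counts in all neuron footprint libraries together.

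All 7 constitutive alpha subunits, which form the outer rings and the gate of the core, were higher in MN1 cells in both library types, with medians of 1.04 in footprints and 1.17 in total mRNA on the log2 scale. Psma6 (chr12:55384222-55418454, plus strand, GRCm38) had 679.5 to 826 CPM in MN1 footprints (median 749, n = 6) and 120 to 206 CPM in neuron footprints (median 161, n = 8). In total mRNA it had 301 to 356 CPM in MN1 cells, against 49.3 to 88.8 CPM in neurons. The lowest MN1 library was thus above the highest neuron library at both levels. The log2 difference of Psma6 was 2.18 ± 0.11 (SE) in footprints (edgeR, adjusted p = 7.89e-14) and 2.36 ± 0.14 in total mRNA (edgeR, adjusted p = 8.34e-10). The footprint levels of Psma7 (chr2:180036373-180042433, minus strand) were 681 to 793 CPM in MN1 cells, against 150.2 to 226.5 CPM in neurons, and the log2 difference was 1.97 ± 0.11. Its total mRNA differed by 2.12 ± 0.15. Psma5 had the smallest footprint difference of the ring, 0.44 ± 0.14, with 60.85 to 89.6 CPM in MN1 cells, against 48.3 to 69.95 CPM in neurons, which overlapped, and its call held in 12 of 19 alternatives. Its total mRNA, at 27.8 to 44.3 and 15.15 to 21.4 CPM, did not overlap and differed by 1.06 ± 0.14. The other 4 alpha subunits, Psma1 to Psma4, differed by 0.65 to 1.09 in footprints and by 1.01 to 1.45 in total mRNA.

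The 7 constitutive beta subunits, which include the 3 with cutting sites, were also all higher in MN1 cells, with medians of 1.10 in footprints and 1.11 in total mRNA. Psmb5, the chymotrypsin-like subunit, had 311 and 343 CPM in the GFP, 288 and 304 in the hTDP-43 and 379.5 and 409 in the A315T footprint libraries of MN1 cells. Neuron footprints held 217 and 232 CPM in WT cultures, 269, 257.5 and 307 CPM with hTDP-43, and 205, 251 and 251 CPM with A315T. The groups overlapped in footprints, where Psmb5 differed by 0.46 ± 0.10, and did not in total mRNA (188 to 261 against 61.5 to 125 CPM), where it differed by 1.05 ± 0.16. Psmb6, the caspase-like subunit, had 365 to 458.5 CPM in MN1 footprints against 123 to 220.1 CPM in the neuron ones, a difference of 1.11 ± 0.12. Psmb7, the trypsin-like subunit, had 409.8 to 491 CPM and 152 to 216.5 CPM, a difference of 1.29 ± 0.11. Neither overlapped between the cell types, and in total mRNA they differed by 1.46 ± 0.17 and 1.48 ± 0.13. The structural subunit Psmb3 differed most among the constitutive beta genes, with 237 to 289 CPM in MN1 footprints against 42.9 to 98.4 CPM in neurons and a difference of 1.67 ± 0.13. The span of Psmb7 overlaps Nek6 and that of Psma6 a ribosomal protein pseudogene, and reads shared by overlapping genes could not be assigned by these counts.

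**Figure D2:**
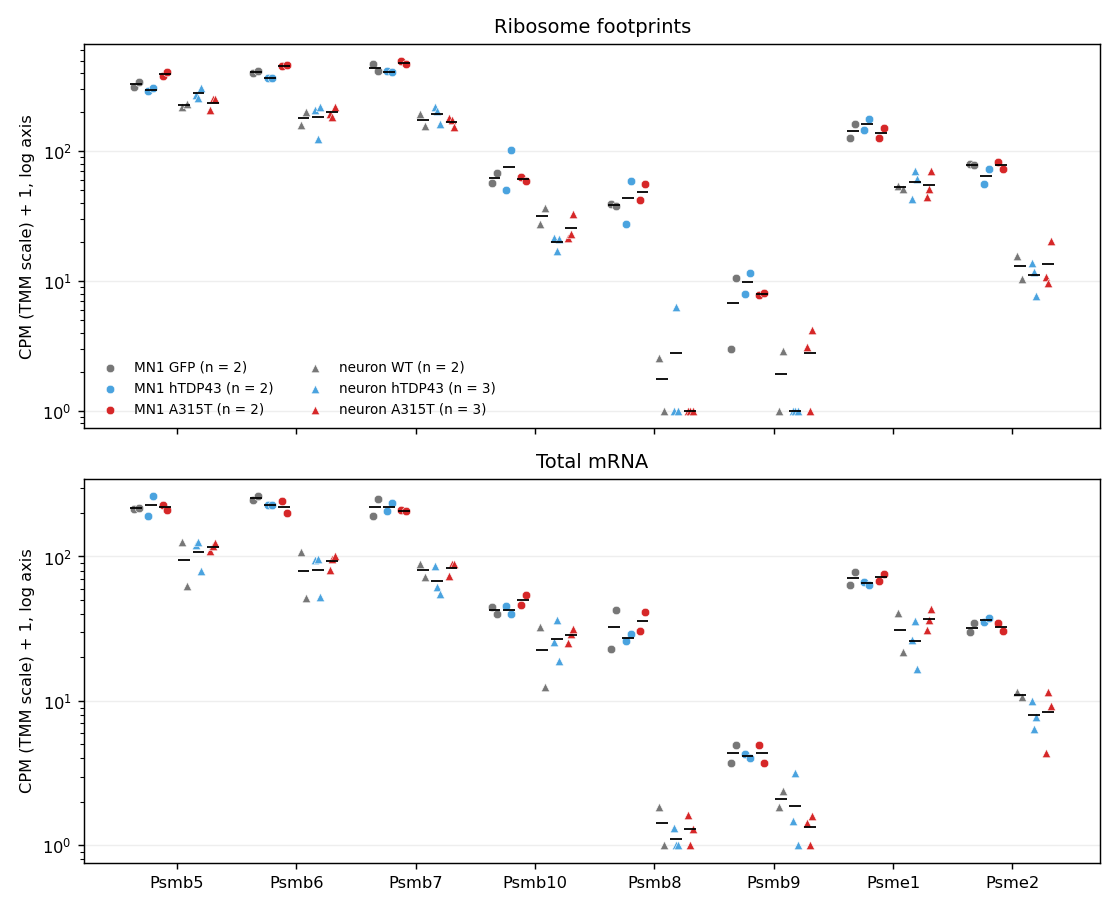
CPM plus 1 on a log axis for the catalytic beta subunits, their interferon-inducible counterparts and the activators Psme1 and Psme2 in every library, with a bar at each group mean. MN1 libraries (circles) stand above neuron libraries (triangles) for Psmb6, Psmb7, Psmb8, Psmb10, Psme1 and Psme2 in both panels, and Psmb8 is at 0 in 6 of the 8 neuron footprint libraries.

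Of the 3 interferon-inducible beta subunits, Psmb8 and Psmb9 were nearly missing in neurons. Both reached the filter in total mRNA, and Psmb8 also in footprints, through MN1 cells only. Psmb8, which takes the place of Psmb5, had 26.5 to 58.2 CPM in MN1 footprints and 21.9 to 41.4 CPM in MN1 total mRNA, and was seen in all 6 cultures. The neuron footprint libraries together held 3 counts of Psmb8 against 194 in MN1 cells, a ratio of 124.8 after scaling to total counts (95% exact interval 42.1 to 610.3), and the total mRNA libraries held 9 against 438, a ratio of 110.2 (57.5 to 242.5). Psmb9, which replaces Psmb6, was scarcer, with 32 counts in MN1 and 9 in neuron footprints (ratio 6.86, interval 3.20 to 16.3) and 47 against 15 in total mRNA (ratio 7.09, interval 3.90 to 13.7). These ratios pool the reads of all cultures and their intervals cover counting error only. They are a description and not a test between cultures. Psmb9 footprints overlapped between the cell types, at 1.995 to 10.6 CPM in MN1 cells and 0 to 3.21 CPM in neurons. Psmb10, which replaces Psmb7, was the only one of the 3 with 10 or more CPM in every neuron library, at 16.1 to 35.5 CPM in neuron footprints against 48.9 to 100.5 in MN1 footprints. It differed by 1.395 ± 0.18 in footprints and 0.80 ± 0.20 in total mRNA (edgeR, adjusted p = 4.46e-07 and 0.00227). Psmb8 and Psmb9 lie within an antigen-presentation cluster on chromosome 17, where Psmb9 shares part of its span with Tap1 and Psmb8 with Gm20496. Tap1 differed by 1.399 ± 0.23 in total mRNA and 0.38 ± 0.28, not past the threshold, in footprints.

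In CPM per kb of coding sequence, the library medians of the 3 inducible subunits ran from 11.9 to 75.7 in MN1 footprints, beside 451 to 780 for the 7 constitutive beta subunits. In neuron footprints they ran from 0 to 24.6 beside 123 to 374.5. The tissue-restricted core subunits were at the edge of detection. Psma8, the testis form of an alpha subunit, had 2 counts in all MN1 total mRNA libraries, 1 in all neuron footprint libraries and 0 elsewhere. Psmb11, the thymus form of Psmb5, had 5 counts in MN1 and 9 in neuron total mRNA, and 1 count in all footprint libraries together. Neither passed the filter, and no difference could be detected at this depth.

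The 6 ATPases of the 19S cap had the smallest median footprint difference of the role groups. Psmc4, Psmc5 and Psmc6 were higher in MN1 footprints, whereas Psmc1, Psmc2 and Psmc3 did not pass the threshold, and the median over the 6 was 0.26 in footprints and 0.78 in total mRNA. Psmc1 had 118 to 157 CPM in MN1 footprints against 109 to 161 CPM in the neuron ones, which overlapped, with a difference of 0.03 ± 0.11. In total mRNA its difference was 0.17 ± 0.12, also short of the threshold. Psmc2 stood at 0.18 ± 0.10 and 0.21 ± 0.11, and Psmc3 at 0.21 ± 0.10 in footprints but 0.69 ± 0.16 in total mRNA (edgeR, adjusted p = 0.000954). Psmc6 differed more, by 0.81 ± 0.12 and 0.96 ± 0.16. The footprint call of Psmc4 (0.32 ± 0.10) held in 5 of 19 alternatives. In turn, Psmc2 passed as higher in footprints with RLE scaling, and Psmc3 with RLE scaling and with DESeq2.

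Of the 11 non-ATPase subunits, 8 were higher in MN1 footprints, 1 was lower and 2 did not pass, and in total mRNA 9 were higher. Psmd3 (1.26 ± 0.10 in footprints), a scaffold of the lid, Psmd12 (1.10 ± 0.10), another lid scaffold, and Psmd14 (1.01 ± 0.11), the deubiquitinase that strips chains from substrates, differed most. Psmd8, also of the lid, was lower, with 114.5 to 184 CPM in MN1 footprints against 160 to 238 CPM in the neuron ones, which overlapped. Its difference was −0.39 ± 0.11 (edgeR, adjusted p = 0.0031) in footprints and −0.08 ± 0.15 in total mRNA. The footprint call was lost in the control groups alone and without the MN1 hTDP-43 replicate 1. Psmd2, the large scaffold of the base, had 239 to 329 CPM in MN1 and 249 to 313 CPM in neuron footprints, a difference of 0.08 ± 0.11 that did not pass. Its total mRNA did not overlap, at 294 to 357.5 against 150.1 to 190 CPM, and differed by 0.86 ± 0.10. Psmd11, another lid subunit, had 16.02 to 23.8 CPM in MN1 and 5.36 to 15.6 CPM in neuron footprints, a difference of 0.50 ± 0.25 that did not pass although the ranges did not overlap. Among the cap chaperones, Psmd10 (gankyrin) was higher by 1.34 ± 0.19 and Psmd5 by 0.34 ± 0.13, whereas Psmd9 stood at −0.25 ± 0.17. The call of Psmd5 held in 4 of 19 alternatives.

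All 4 activators tested were higher in MN1 cells, with medians of 1.63 in footprints and 1.57 in total mRNA. Psme1 and Psme2, the interferon-inducible pair that caps the core in antigen presentation, had 125 to 177 and 54.5 to 81.8 CPM in MN1 footprints and 41.8 to 69.7 and 6.67 to 19.2 CPM in neuron footprints. Neither overlapped, and they differed by 1.501 ± 0.14 and 2.52 ± 0.19 in footprints and by 1.16 ± 0.17 and 1.99 ± 0.22 in total mRNA. Psme3, the nuclear activator, had 177 to 239 CPM in MN1 footprints and 74.7 to 94.0 CPM in neurons, a difference of 1.31 ± 0.11 beside 1.38 ± 0.11 in total mRNA. Psme4, an activator of a different family that is abundant in testis, had 156 to 194 CPM and 32.2 to 65.4 CPM, and differed by 1.75 ± 0.13 and 1.75 ± 0.21. The intronless Psme2b had 0 footprint counts in all 14 libraries and, in total mRNA, 5 counts in MN1 cells and 1 in neurons, and its sequence is close to that of Psme2, so reads of either may be lost or misplaced. The inhibitor Psmf1 differed by 0.49 ± 0.14 in footprints, with overlapping levels of 60.8 to 94.8 and 33.35 to 70.5 CPM.

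Of the core chaperones, which assemble the alpha ring, Psmg1, Psmg2 and Psmg3 were higher in MN1 cells. Psmg3 had 45.7 to 65.6 CPM in MN1 footprints against 0 to 8.74 CPM in the neuron ones, and 59.6 to 70.04 against 4.48 to 15.9 CPM in total mRNA. The groups stood far apart, and the difference was 2.49 ± 0.18 in total mRNA (edgeR, adjusted p = 5.62e-09). In footprints the fitted difference was 3.17 ± 0.21, given as a description because Psmg3 reached the filter there in MN1 cells only. Psmg1 differed by 1.61 ± 0.18 and Psmg2 by 1.87 ± 0.19 in footprints. Psmg4, with 14.05 to 31.7 CPM in MN1 and 0 to 47.0 CPM in neuron footprints, stood at 0.32 ± 0.28 and did not pass. The recombination factor Psmc3ip, which marks no proteasome function, had a fitted difference of 2.23 ± 0.44 in footprints, where it too reached the filter in MN1 cells only.

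Of 10 partners of the particle found under other symbols, 5 were higher and 4 lower in MN1 footprints, and 5 and 2 in total mRNA. Over all genes, 39.9% were higher and 42.7% lower in footprints and 38.4% and 42.6% in total mRNA. The ubiquitin receptor Adrm1 and the deubiquitinase Uchl5, which bind each other on the cap, were higher by 1.53 ± 0.12 and 1.75 ± 0.14 in footprints, and so was the core maturation factor Pomp, by 0.57 ± 0.12. The cap deubiquitinase Usp14 (−0.77 ± 0.11) and the stress-inducible proteasome binder Zfand5 (−1.79 ± 0.12) were lower. Of 12 genes for ubiquitin, its E1 enzyme and delivery factors, 4 were higher and 3 lower in footprints, and 7 and 3 in total mRNA, with Ubb at −0.45 ± 0.12 in footprints. Of 4 genes that control proteasome transcription, Nfe2l1 (NRF1) was lower in MN1 cells, with 135 to 155 CPM in MN1 and 247 to 330 CPM in neuron footprints and differences of −1.003 ± 0.10 in footprints and −0.70 ± 0.13 in total mRNA. Nfe2l2 (NRF2) had 22.8 to 38.8 CPM in MN1 and 2.32 to 8.89 CPM in neuron footprints. Its fitted difference of 2.25 ± 0.25 is given as a description, because it reached the filter's level of 13.5 CPM in MN1 cells only. Ddi2, the protease that activates NRF1, was higher by 1.17 ± 0.14, and Ngly1 stood at −0.69 ± 0.30 in footprints, past the threshold (edgeR, adjusted p = 0.0415). The MN1 footprint libraries held 7.93 to 14.0 CPM of Ngly1 (median 10.2), within the neuron range of 0 to 33.4 CPM. This MN1 median was below the filter's level. In total mRNA Ngly1 stood at −0.23 ± 0.24 and did not pass. Of 6 interferon and antigen presentation genes, 3 of 4 tested were higher in footprints and 4 of 5 in total mRNA, and none was lower. Among them was B2m, by 2.52 ± 0.18 in footprints. Irf1 and Tap2, counted as higher in both library types, reached the filter's level in MN1 cells only. They had at most 5.36 and 8.74 CPM in neuron footprints, so their part in these counts is a description.

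The promoters of the members were searched for motifs of factors known to act on housekeeping and proteasome genes. RefSeq windows of 250 bases before the start on GRCm38.p6 were found for 42 of the 50 members, 45 promoters in all, beside 32851 promoters of 27025 genes. The core of the antioxidant response element that NRF1 and NRF2 bind, TGACNNNGC on either strand, was in 11.1% of member promoters and in 10.2% of all promoters. CCAAT was in 33.3% and 33.9%. The core of the ETS factor site, CCGGAAG on either strand, was in 31.1% of member promoters, those of 13 genes, and in 6.91% of all. A match is a description of letters and not a bound site, and 8 members held 2 of the 3 motifs. The 5 windows with the antioxidant element are shown because Nfe2l1 differed between the cell types. Each is read along the gene's strand 5′ to 3′, with up to 20 bases on each side of the motif. The motif is in capitals, as its reverse complement for Psmd12 and Psmc6.
Psmb5, chr14:54618014-54618062, minus strand: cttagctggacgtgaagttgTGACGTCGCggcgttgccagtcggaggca
Psmb6, chr11:70525328-70525356, plus strand: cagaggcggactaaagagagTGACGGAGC
Psmc6, chr14:45329577-45329625, plus strand: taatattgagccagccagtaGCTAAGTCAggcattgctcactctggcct
Psmd9, chr5:123228139-123228187, plus strand: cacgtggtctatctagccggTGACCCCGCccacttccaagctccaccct
Psmd12, chr11:107479278-107479309, plus strand: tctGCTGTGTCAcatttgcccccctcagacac

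The ETS core lay within 25 bases of the start in 6 windows, 5 of them of 19S cap subunits, and these 5 are shown in the same way, with the motif in capitals as its reverse complement. The other was that of Psmc3ip. The share of all promoters with the core this close to the start was not counted, so no excess is claimed. The Psmc2 window belongs to a start inside the span counted for the gene. At another Psmc2 start the core lay 77 bases away.
Psmc1, chr12:100110154-100110200, plus strand: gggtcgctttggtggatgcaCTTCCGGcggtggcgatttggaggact
Psmc2, chr5:21786703-21786746, plus strand: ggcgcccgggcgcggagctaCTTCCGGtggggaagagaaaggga
Psmd2, chr16:20651606-20651651, plus strand: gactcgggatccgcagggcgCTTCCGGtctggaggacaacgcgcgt
Psmd11, chr11:80428584-80428614, plus strand: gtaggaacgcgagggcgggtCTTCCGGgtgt
Psmd12, chr11:107479491-107479527, plus strand: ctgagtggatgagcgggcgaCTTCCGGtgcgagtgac
Of these 5 genes, Psmd12 was higher in MN1 cells at both levels, Psmd2 in total mRNA only, and Psmc1, Psmc2 and Psmd11 passed in neither.

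Levels of different subunits of the 26S particle were compared per kb of coding sequence, as counts per kb scaled to CPM by library totals. The median over the 31 constitutive subunits was 254 for footprints and 181.5 for total mRNA of MN1 cells, and 132 and 74.4 for those of neurons. Within 2-fold of these medians in either direction lay 19, 21, 25 and 25 of the 31 subunits, in the same order. The highest and lowest subunits were 70.8-fold apart for MN1 footprints and 22.9-fold for MN1 total mRNA, against 37.2-fold and 8.99-fold for the neuron libraries. Beta subunits were the highest class, with a median of 568 in MN1 footprints and 264 in neuron footprints, against 194 and 117 for the ATPases. In MN1 footprints Psma7 (924 to 1193, median 1124) and Psma6 (1035 to 1193, median 1087) led and overlapped each other. Psmb1 came next with a median of 780, and its range of 719 to 929 reached that of Psma7 but not that of Psma6. In neuron footprints Psmb4 (346 to 434) and Psmb1 (268 to 381) led and overlapped. In neuron total mRNA Psmb4 (median 202) and Psmb5 (138.5) led. This order depended on the length used. Per kb of exon, Psma7 came seventh in MN1 footprints (median 272) after Psma6 (650) and Psmb1 (542), Psmb5 (269) led in neuron footprints, and the highest and lowest subunits were 206.5-fold and 134.7-fold apart.

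**Figure D3:**
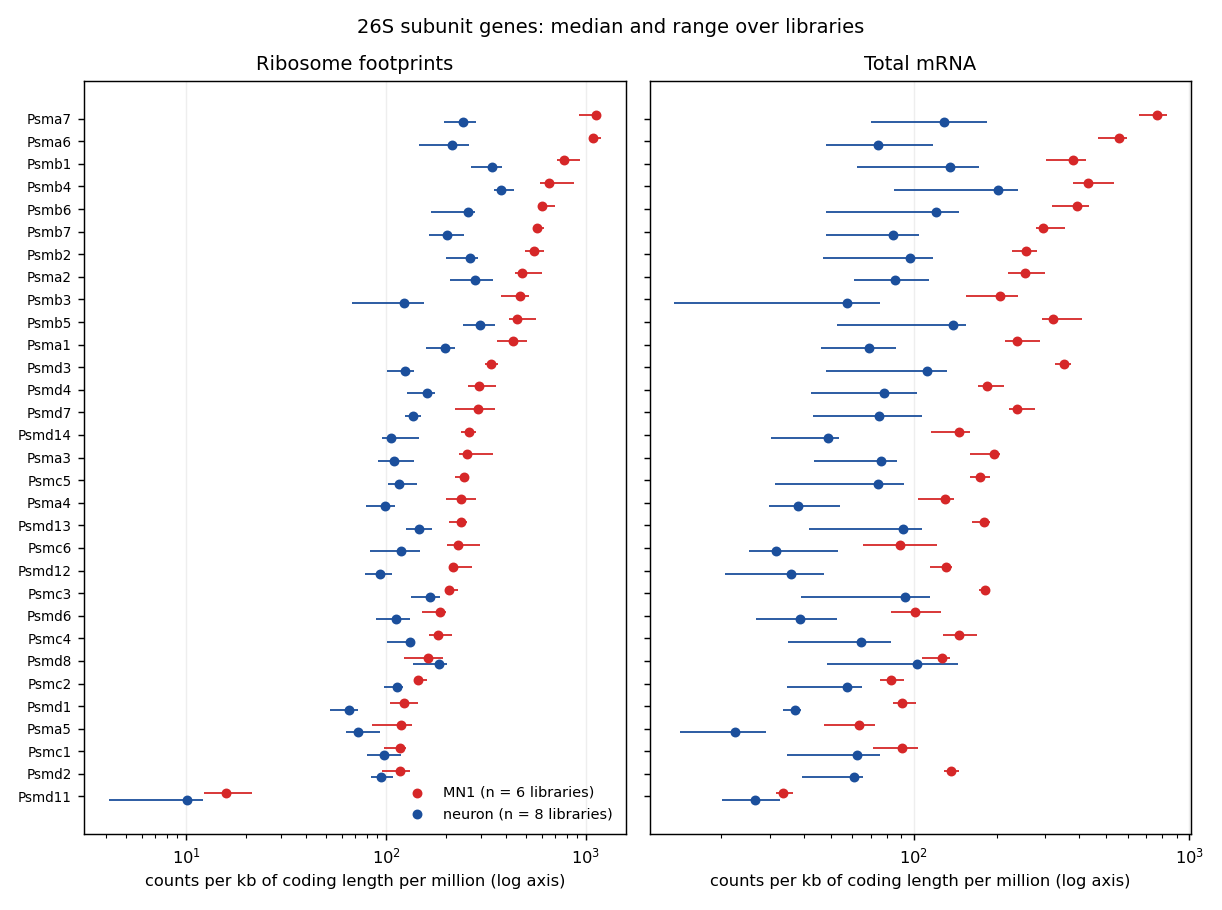
CPM per kb of coding length on log axes for the 31 constitutive 26S subunits, points at the median and lines from the lowest to the highest library of each cell type, ordered by MN1 footprints. Psmd11 stands apart at the low end of footprints with medians of 15.9 in MN1 cells and 10.1 in neurons, and Psma7 and Psma6 lead in MN1 cells.

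Psmd11 was the lowest subunit in footprints of both cell types. It had 12.3 to 21.4 CPM per coding kb in MN1 footprints, whereas the next lowest, Psmd2, had 95.7 to 133. In neurons it had 4.11 to 12.1, from 1 to 35 counts a library, and the next lowest, Psmd1, had 52.4 to 72.3. The ranges did not overlap. In MN1 total mRNA the gap was smaller, with medians of 33.5 for Psmd11 and 63.5 for Psma5. In neuron total mRNA the order depended on the length used. Per coding kb Psmd11 (20.2 to 32.8, median 26.6) stood above Psma5 (14.2 to 29.2, median 22.4), and their ranges overlapped. Per kb of exon Psmd11 was the lowest subunit there, at 4.01 to 6.51 (median 5.28). Psma5 was the next lowest, at 7.79 to 15.99 (median 12.28), with no overlap. Psmd11 has 6383 bases of exon of which 19.8% are coding. The counts include reads in UTRs, whose part in the gaps between Psmd11 and the other subunits was not tested.

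Footprints were compared with total mRNA within each cell type to show which mRNAs carry more ribosomes than the average gene. Most proteasome genes were higher in footprints than in total mRNA, led by Psmc6, and Psmd11 was lower in both cell types. In MN1 cells 40 of 47 members tested were higher in footprints and 3 lower (edgeR's quasi-likelihood test, Benjamini-Hochberg), against 28.7% higher and 30.8% lower of 10212 genes. In neurons 37 of 44 were higher and 3 lower, against 26.9% and 29.6% of 11654 genes. The members' median log2 difference was 0.75 in MN1 cells and 0.95 in neurons, beside −0.04 and −0.02 over all genes. The scale is relative to all genes, and the library types also differ in poly(A) selection and UTR reads. Of the called members, 38 of 43 in MN1 cells and 36 of 40 in neurons passed under every alternative setting.

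Psmc6 (chr14:45329824-45349071, plus strand), an ATPase of the cap, had the largest difference in both cell types. It had 207 to 307 CPM in MN1 footprints and 67.1 to 113 CPM in MN1 total mRNA, and 108 to 179 against 31.3 to 64.5 CPM in neurons. The library types did not overlap, and the log2 difference was 1.63 ± 0.11 in MN1 cells and 1.73 ± 0.15 in neurons (edgeR, adjusted p = 3.65e-09 and 1.17e-08). The beta subunits Psmb3 (1.39 ± 0.10), Psmb1 (1.35 ± 0.09) and Psmb2 (1.33 ± 0.08), the alpha subunit Psma6 (1.22 ± 0.07) and the deubiquitinase Psmd14 (1.09 ± 0.08) were the others with the smallest adjusted p in MN1 cells. In neurons they were the alpha subunits Psma5 (1.68 ± 0.13), Psma2 (1.60 ± 0.11) and Psma1 (1.48 ± 0.10), Psmb2 (1.46 ± 0.13) and Psmd12 (1.35 ± 0.12). All 7 alpha and 7 constitutive beta subunits and all 6 ATPases were higher in footprints in both cell types.

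Psmd11 went the other way. It had 16.02 to 23.8 CPM in MN1 footprints and 33.9 to 40.2 CPM in MN1 total mRNA, and 5.36 to 15.6 against 33.6 to 45.2 CPM in neurons, with no overlap. Its difference was −0.91 ± 0.15 in MN1 cells and −1.48 ± 0.18 in neurons (edgeR, adjusted p = 4.98e-05 and 8.07e-07). The activator Psme3 was lower in both, at −0.31 ± 0.09 and −0.26 ± 0.11. The chaperone Psmd9 was lower in MN1 cells (−0.37 ± 0.14) and Psmg3 in neurons (−0.86 ± 0.28), with 0 to 8.74 CPM in neuron footprints. The Psmd9 call was lost without any 1 of the 4 GFP and A315T cultures. The neuron call of Psme3 held in 6 of 13 alternatives, and was lost with no filter and without any 1 of 6 cultures, that is all but WT replicate 3 and hTDP-43 replicate 3. The coding share of the exons was 19.8% for Psmd11, 25.8% for Psme3, 9.19% for Psmd9 and 12.7% for Psmg3, and the median over the members tested in MN1 cells was 40.65%.

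Genes with a low coding share tended to be lower in footprints, so the members were set beside all protein-coding genes of like coding share. With a coding share below 25%, all genes had a median of −0.17 in MN1 cells and −0.26 in neurons, and the 7 and 6 members there had medians of 0.48 and 0.14. With a share from 40% to 55%, the medians were −0.01 and 0.09 over all genes and 0.99 and 1.16 over the 10 members. From 70% on, they were 0.16 and 0.23 over all genes and 0.91 and 1.21 over the 6 members. The members' median was above that of all genes in each of the 5 ranges in both cell types. Of the partners of the particle, 9 of 10 were also higher in footprints in both cell types and 0 lower, beside 28.7% higher of all genes in MN1 cells and 26.9% in neurons. Of the 12 ubiquitin and delivery genes, 10 were higher and 2 lower in MN1 cells, and 9 and 2 in neurons.

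**Figure D4:**
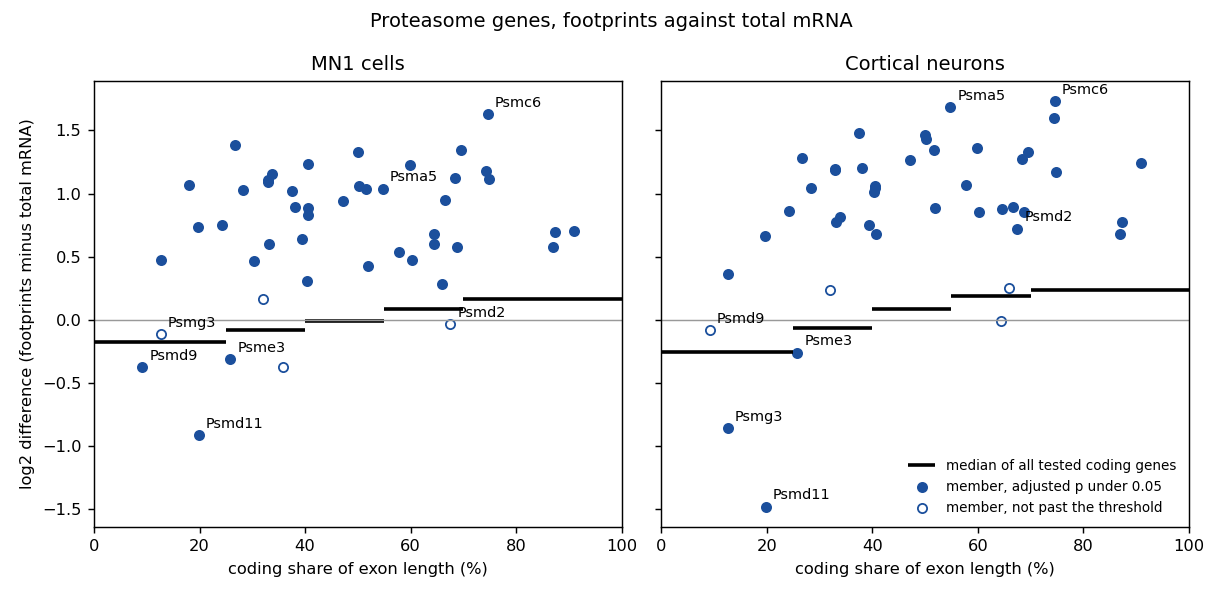
Log2 difference between footprints and total mRNA for each member tested, against the coding share of its exons in percent, in MN1 cells (left) and cortical neurons (right), with black bars at the median of all protein-coding genes tested in each range of coding share. Most members lie above the bars, and Psmd11 lies lowest in both panels at −0.91 and −1.48.

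A model over all 28 libraries asked whether footprints relative to total mRNA differed between the cell types. In MN1 cells 9 of 47 members were lower and 0 higher by edgeR's quasi-likelihood test with Benjamini-Hochberg adjustment, against 7.82% lower and 2.9% higher of 12358 genes. The scaling decided most of these calls. With RLE scaling 2 were lower and 1 higher, against 2.36% and 4.59% of all genes, and the median over all genes moved from −0.18 to 0.04 while that of the members moved from −0.25 to −0.03. The members' median minus that of all genes was −0.07 under either scaling. DESeq2 called 4 lower and 1 higher, namely Psmg3, which RLE scaling also called.

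Psmd2 was the member called under all 19 alternative settings, with a log2 difference of −0.90 ± 0.14 (edgeR, adjusted p = 0.000113) that became −0.68 with RLE scaling. Within cultures, its log2 ratio of footprint to total mRNA CPM, scaled by library totals, was −0.58 to −0.05 in the 6 MN1 cultures and 0.47 to 1.11 in the 8 neuron cultures, with no overlap. The cap chaperone Psmd5 came next at −0.83 ± 0.17, with log2 ratios of −0.14 to 0.20 in MN1 and 0.70 to 2.27 in neuron cultures. It also passed with RLE scaling, at −0.61. The other 7 were Psma5 (−0.76 ± 0.18), Psmb5 (−0.68 ± 0.18), Psmc4 (−0.67 ± 0.16), Psma1 (−0.60 ± 0.13), Psmc3 (−0.59 ± 0.18), Psma2 (−0.55 ± 0.15) and Psmd7 (−0.53 ± 0.17). Their values with RLE scaling ran from −0.54 to −0.31 and none passed.

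Expression of hTDP-43 or hTDP-43 A315T was compared with the controls and with each other, which was the question of the study, in footprints and in total mRNA of each cell type. No proteasome gene passed the test. In the 12 comparisons of groups, 40 to 46 members were tested and 0 passed edgeR's quasi-likelihood test with Benjamini-Hochberg adjustment (smallest adjusted p = 0.8495), 6 had an unadjusted p under 0.05, and DESeq2 called 0 with 2 under that unadjusted p. Over all genes the same fits called 0.0115% in MN1 footprints with A315T against GFP, 0.00965% in MN1 total mRNA with A315T against GFP, 0.01% there with hTDP-43 against GFP and 0% in the other 9 comparisons. The members' medians lay between −0.09 and 0.09, and the median SE of a member was 0.19. Without the 2 Lars2-rich cultures, which leaves 1 WT culture, the median in neuron total mRNA turned from 0.09 to −0.12 for A315T against WT and moved from −0.004 to −0.18 for hTDP-43 against WT. With the replicate block the former was 0.18. The groups held 2 or 3 cultures each, so small changes could not be detected.

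**Figure D5:**
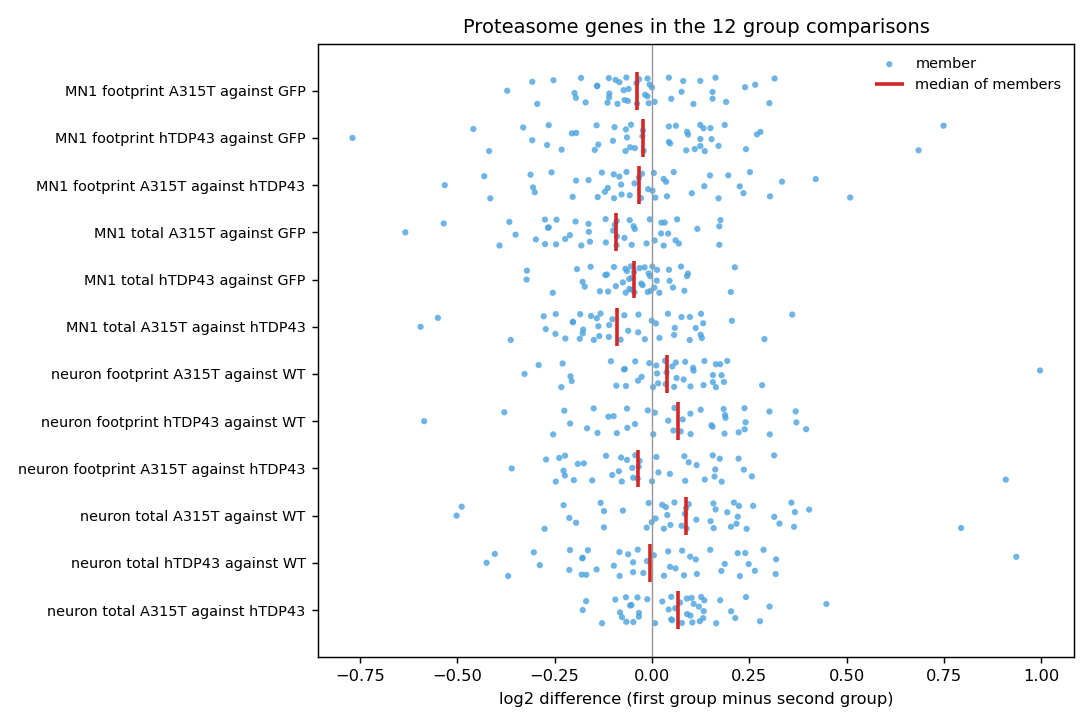
Log2 difference of each member tested in the 12 comparisons of groups (points) with the median of the members (red bars), one line for each comparison. The red bars lie between −0.09 and 0.09 and no point passed the test.

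The values of the members with the smallest unadjusted p in each comparison were as follows. In MN1 footprints they were Psma1 (−0.29 ± 0.17) and Psmb5 (0.26 ± 0.18) for A315T against GFP, Psmd9 (0.68 ± 0.28) and Psmg4 (0.75 ± 0.37) for hTDP-43 against GFP, and Psmf1 (0.42 ± 0.23) and Psmd9 (−0.53 ± 0.30) for A315T against hTDP-43. In MN1 total mRNA they were Psmc6 (−0.63 ± 0.18) and Psmb3 (−0.39 ± 0.16) for A315T against GFP, Psmf1 (−0.32 ± 0.19) and Psmd7 (0.21 ± 0.13) for hTDP-43 against GFP, and Psmc6 (−0.59 ± 0.18) and Psme4 (−0.36 ± 0.18) for A315T against hTDP-43. In neuron footprints they were Psmg4 (1.00 ± 0.45) and Psmd12 (0.28 ± 0.16) for A315T against WT, Psmd12 (0.37 ± 0.18) and Psmd14 (0.37 ± 0.21) for hTDP-43 against WT, and Psmd14 (−0.36 ± 0.18) and Psmg4 (0.91 ± 0.46) for A315T against hTDP-43. In neuron total mRNA they were Psmd10 (0.79 ± 0.47) and Psmg2 (−0.50 ± 0.35) for A315T against WT, Psmd10 (0.94 ± 0.56) and Psma4 (−0.40 ± 0.27) for hTDP-43 against WT, and Psme1 (0.45 ± 0.26) and Psma7 (0.28 ± 0.19) for A315T against hTDP-43. Comparisons of a cell type and library type share groups, so a gene named in more than 1 of them, such as Psmc6 or Psmd12, is not seen independently each time.

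Psmc6 was the member on which the design of the fit had most effect. Its MN1 total mRNA stood at 113 and 88.55 CPM in GFP cultures, at 107 and 83.6 CPM in hTDP-43 cultures and at 68.8 and 67.1 CPM in A315T cultures (replicates 1 and 2). Both A315T cultures were below all 4 others. Replicates of the same number carry the same date in their labels, except that 1 GFP footprint library of replicate 1 is labelled with another year. With that number as a block the log2 difference was −0.64 against GFP (edgeR, adjusted p = 0.00781) and −0.60 against hTDP-43 (edgeR, adjusted p = 0.0479). The blocked fits called 1 member each, against 2.63% and 0.764% of all genes. Psmc6 footprints stood at 278 and 307 CPM in GFP cultures, 207 and 243 CPM in hTDP-43 cultures and 264 and 228 CPM in A315T cultures. Both A315T values were below both GFP values there, and they overlapped those of hTDP-43. In neurons its total mRNA was 37.4 and 49.1 CPM in WT cultures, 49.2, 31.3 and 44.8 CPM with hTDP-43, and 43.5, 64.5 and 37.6 CPM with A315T, which overlapped.

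Footprints relative to total mRNA were tested between the groups in the same way, over 44 to 47 members in 6 comparisons. None passed (edgeR and DESeq2, 0 members, and 0% of all genes by edgeR), and 3 had an unadjusted p under 0.05 by edgeR and 0 by DESeq2. The members' medians lay between −0.04 and 0.09. Without the 2 Lars2-rich cultures they became 0.23 for A315T against WT in neurons, from −0.02, and 0.25 for hTDP-43 against WT, from 0.05. Whether the effect of A315T against the control differed between the cell types was also tested, and 0 members and 0% of all genes passed in footprints or total mRNA, with 1 member under an unadjusted p of 0.05 by edgeR and 0 by DESeq2. That member was Psmb8 in footprints, at 3.65 ± 1.59. This fit holds no hTDP-43 libraries, so the value rests on 2 neuron counts, both in WT replicate 2. The median of the members for total mRNA turned from −0.10 to 0.13 without the Lars2-rich cultures.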

How the data were processed

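Ribosome footprints and poly(A) total mRNA of 14 cultures were sequenced as 28 libraries. The authors trimmed adapters with cutadapt 1.8.1, removed non-coding RNA with Bowtie2, aligned with TopHat2 to GRCm38 and deposited raw counts per gene from featureCounts 1.4.4, in which reads shared by overlapping genes were not assigned and no strand setting is stated. Of 45513 genes, 44671 were matched by identifier to GENCODE M21 for symbols, biotypes and lengths. The members and lists were chosen with earlier results of these data known.

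Counts were tested in R 4.3.3 with edgeR 4.0.16 (quasi-likelihood test, TMM scaling, genes kept by a minimum count of 10 and a total of 15), with adjustment over all genes tested and a threshold of 0.05. For footprints against and relative to total mRNA, both library types were modelled together without a term for the culture. The 2 libraries of a culture were thus treated as independent in the main fits. No SE is given where the unadjusted p was above 0.9. Named members were the 6 with the smallest p in each direction that passed, or the 2 with the smallest p where none passed, beside members taken by role. The alternatives were DESeq2 1.42.0, RLE scaling, no filter, a replicate block and the control groups alone. Others were exon in place of coding length and leaving out each culture (158 fits). The block was the replicate number, or the culture where both library types were compared. Within a library type, MN1 cells against neurons had no block, and the control groups alone were fitted only there. Leaving out the 2 Lars2-rich neuron cultures was added after the data were seen. The fits were tested on simulated data. Replicates of one number share a date in the labels of a cell type (1 GFP footprint library is labelled with another year), and deviations from the group means correlated on average at 0.34 (footprints) and 0.44 (total mRNA) between MN1 libraries of the same number, and at 0.12 and 0.17 between neuron libraries. Where cultures share a source beyond this is not given, so p-values measure the spread between these cultures. In the main fits that modelled both library types together they measure the spread between libraries. Total counts per library ran from 166064 to 6969578, and intervals cover counting error only.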

Additional observations from a re-analysis of the deposited data

Results flagged for a closer look

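Footprints relative to total mRNA differed between MN1 cells and cortical neurons for 9 members by a test of the difference itself (edgeR's quasi-likelihood test with Benjamini-Hochberg adjustment), all lower in MN1 cells. The log2 differences were −0.90 for Psmd2, −0.83 for Psmd5, −0.76 for Psma5, −0.68 for Psmb5, −0.67 for Psmc4, −0.60 for Psma1, −0.59 for Psmc3, −0.55 for Psma2 and −0.53 for Psmd7, beside a median of −0.18 over all genes, of which 7.82% were lower and 2.9% higher. With RLE scaling 7 of the 9 no longer passed, all but Psmd2 and Psmd5, and without the MN1 hTDP-43 replicate 1 only Psmd2 did. MN1 cells had cycloheximide before lysis and neurons did not, and its part in these differences cannot be told apart from that of the cell type.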

How the results depend on the processing

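The difference between cell types in footprints relative to total mRNA depended most on the processing: 9 members passed, against 3 with RLE scaling, 5 with no filter, 5 with DESeq2, and 1 to 13 when 1 culture was left out, with 1 without the MN1 hTDP-43 replicate 1. The replicate block gave 1 member each, Psmc6, in MN1 total mRNA of A315T against GFP and against hTDP-43, where none passed without it, and it changed no other count of members by over 1.5 times. Leaving out 1 culture gave 0 to 1 and 0 to 2 members there, with 1 (Psmc6, −0.84) without the GFP replicate 2 and 2 (Psmc6, −0.76, and Psme4, −0.59) without the hTDP-43 replicate 2. It gave 0 to 6 in neuron total mRNA of A315T against WT, all 6 without the WT replicate 2, which leaves the Lars2-rich WT culture alone and assumes that it varies like the other groups. With exon in place of coding length, the 26S medians were 111.8 and 87.2 in MN1 footprints and total mRNA and 73.97 and 35.95 in neurons. The cause of these changes was not tested. No called value was reversed. The members' median, which carries no test, changed sign without the Lars2-rich cultures in neuron total mRNA of A315T against WT (0.09 to −0.12) and against hTDP-43 (0.07 to −0.04), in neuron footprints relative to total mRNA of A315T against WT (−0.02 to 0.23, and 0.00047 with DESeq2) and against hTDP-43 (−0.04 to 0.02), and for the effect of A315T on total mRNA between cell types (−0.10 to 0.13). Of the values that answer a comparison, 166 of those with 1 culture left out and 95 under other settings stayed within these limits, and 4 and 9 did not. Depth limited Psmb8, Psmb9 and Psmg4 in neuron footprints, and also Psmd11 (1 to 35 counts a library), Psmg3 (0 to 13) and Psme2 (1 to 29).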
